A study of Mus musculus with 6 samples.

Results

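Messenger RNA of 10 genes of blood and lymph vessel signalling was compared between early lesion (EL) and primary tumour (PT) spheres of MMTV-Neu mice. The 10 genes are the vascular endothelial growth factor (VEGF) ligands Vegfa, Vegfb, Vegfc and Pgf, the VEGF receptors Kdr, Flt1 and Flt4, the TIE receptors Tek and Tie1, and the TIE ligand Angpt1. They were chosen by gene symbol, 10 of the 19893 symbols that have a transcript in all 6 libraries, and each is represented by its transcript with the highest mean count. All 10 passed the filter on low counts. Tek, with 7, 4 and 7 counts in the PT libraries, passed it through EL alone, which fixed its direction. Both groups carry MMTV-HER2/Neu on the FvB background, a transgene in which the promoter of the mouse mammary tumour virus drives the rat Neu receptor mainly in mammary epithelium. The 3 EL libraries came from mice of 14 to 18 weeks with no palpable tumour, and the 3 PT libraries from mice older than 20 weeks with primary tumours. Digested tissue of both groups was grown for 7 days as floating mammospheres, clusters that form from cells kept from attaching, and polyadenylated RNA was then sequenced, so age, tumour stage and tissue of origin differ together. The tissue label of the EL samples reads "mammary lung", although the protocol names mammary glands. The labels leave it unsaid whether each library is a mouse of its own. The p-values therefore weigh the group difference only against the spread of these libraries, which may be technical variation.

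Total counts over the deposited transcript rows ran from 69759793 to 73654058 in EL and from 78054335 to 85126630 in PT. The table of EL replicate 1 breaks off after 27664 of 33068 rows, but it holds every transcript used here. The label "breast cancer cells" is given for both groups, and the luminal epithelial markers summed to 2807 to 2870 CPM (counts for each 1000000 of the TMM-scaled library total) in EL against 9088 to 9460 in PT. Fibroblast markers summed to 67520 to 71760 CPM in EL against 665 to 795 in PT. In such bulk RNA, fewer cells of a type and less RNA per cell cannot be told apart.

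VEGF ligands are secreted dimers that bind receptor tyrosine kinases on endothelial cells. VEGF-A acts mainly through KDR (VEGFR2) to drive endothelial growth and permeability, while FLT1 (VEGFR1) binds VEGF-A, VEGF-B and placental growth factor and can act as a trap for them, and FLT4 (VEGFR3) binds VEGF-C and VEGF-D in lymphatic and angiogenic endothelium. Angiopoietin 1, made by cells around vessels, activates TEK (TIE2) and so stabilises vessels, with TIE1 as a partner receptor that modulates it. In a mammary gland or tumour the ligands can come from epithelium, stroma and macrophages, and most of the receptors from endothelium.

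The PT spheres had less RNA of 9 of the 10 genes, and slightly more of Vegfb. The receptors Tek, Tie1 and Kdr and the lymphatic growth factor Vegfc fell most, by 25.8-fold to 67.2-fold, while Vegfa, Pgf and Flt1 fell by 1.49-fold to 2.17-fold. By the quasi-likelihood test of edgeR with Benjamini-Hochberg adjustment over all 13844 tested genes, all 10 passed the threshold of 0.05. This is to be read against 80.7% of all tested genes that passed it, 40.8% lower and 39.9% higher in PT. The CPM of the groups did not overlap for any of the 10 genes, nor for 82.7% of all tested genes. Among genes called lower against no change, the estimated fall was over 2-fold for 8 of the 10 genes and for 19.4% of all tested genes, and over 16-fold for 4 of the 10, namely Vegfc, Kdr, Tek and Tie1, and for 6.98% of all. A test against a minimum of 2-fold (edgeR glmTreat) called 6 of the 10 genes lower, and 17.3% of all tested genes. The median log2 fold change of the 10 genes was -3.07, against 0.0 over all tested genes.

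**Figure D1:**
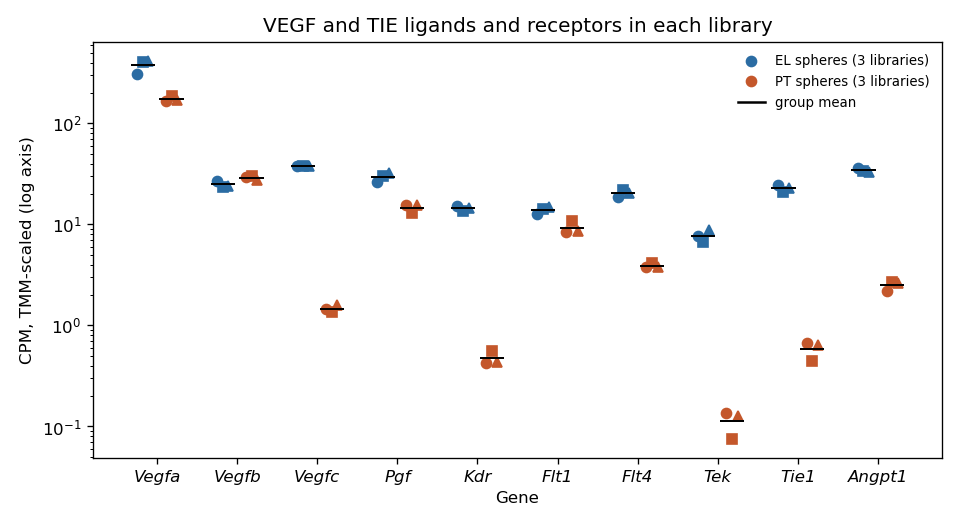
CPM of each of the 10 genes in each of the 6 libraries, on a log axis, with EL in blue, PT in red, replicates 1 to 3 as circle, square and triangle, and a bar at the group mean. The groups do not overlap for any gene, and the distance between them is smallest for Vegfb and widest for Tek.

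Among the ligands, Vegfa (chromosome 17, 46016993 to 46032377, build GRCm38), the main growth factor of blood vessels, was the most abundant of the 10 genes. It had 309.9, 404 and 411 CPM in EL replicates 1 to 3 and 166, 185 and 168 CPM in PT replicates 1 to 3. The lowest EL library was still well above the highest PT library, and the EL libraries were the more scattered. The means were 375 ± 56.7 CPM for EL and 173 ± 10.3 CPM for PT (SD, with n = 3 in each), a log2 fold change of -1.11 (SE 0.086, edgeR adjusted p = 6.02e-08). The fall of 2.17-fold did not pass a test against a minimum of 2-fold (edgeR glmTreat adjusted p = 0.124).

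Vegfb (chromosome 19, 6982472 to 6987651), a ligand of FLT1, was the only gene of the 10 that was higher in PT. It had 27.1, 23.7 and 24.2 CPM in EL and 29.3, 29.8 and 27.8 CPM in PT. The lowest PT library lay just above the highest EL library. The means of 25.0 ± 1.86 and 29.0 ± 1.06 CPM gave a rise of 1.16-fold, with a log2 fold change of 0.21 (SE 0.057, edgeR adjusted p = 0.004). This change depends on the scaling, and was 0.46 when libraries were scaled by their totals alone.

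Vegfc (chromosome 8, 54077532 to 54186454), the ligand of FLT4 that drives lymphatic vessel growth, had 1533, 1507 and 1536 counts in EL and 74, 73 and 89 in PT. As CPM these were 37.7, 37.9 and 38.3 in EL and 1.44, 1.37 and 1.60 in PT. The EL libraries were nearly equal, and every PT library was more than an order of magnitude below them. The log2 fold change was -4.69 (SE 0.069, edgeR adjusted p = 3.37e-15), the steepest fall among the 5 ligands.

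Pgf (chromosome 12, 85166637 to 85177785) encodes placental growth factor, which binds FLT1 but not KDR. It had 26.2, 30.4 and 32.3 CPM in EL and 15.4, 13.0 and 15.7 CPM in PT. Its fall was close to that of Vegfa, with a log2 fold change of -1.01 (SE 0.084, edgeR adjusted p = 1.3e-07), and likewise did not pass the test against a 2-fold minimum (glmTreat adjusted p = 0.72).

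Kdr (chromosome 5, 75932827 to 75979072), the main signalling receptor of VEGF-A, had 619, 543 and 588 counts in EL and 22, 30 and 24 in PT. This was 15.2, 13.7 and 14.7 CPM in EL against 0.429, 0.562 and 0.431 CPM in PT. The EL group lay far above the PT group in all libraries, with a log2 fold change of -4.93 (SE 0.123, edgeR adjusted p = 4.81e-13), or 30.4-fold lower in PT.

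Flt1 (chromosome 5, 147561604 to 147726438), which lies on the same chromosome as Kdr, behaved differently. Its raw counts of 516, 561 and 593 in EL and 435, 579 and 476 in PT overlapped between the groups. After scaling the CPM were 12.7, 14.1 and 14.8 in EL and 8.48, 10.8 and 8.55 in PT, with no overlap. The fall was 1.49-fold, a log2 fold change of -0.58 (SE 0.098, edgeR adjusted p = 0.000125), which was -0.33 with library totals alone. The table has a single transcript row for Flt1, the full-length receptor. Reads of the soluble form of FLT1, which binds ligand without signalling, would count in this row where the forms share exons. The forms were not told apart here.

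The ratio of Flt1 to Kdr makes the difference between these receptors direct, since it does not depend on how libraries are scaled. There were 0.834, 1.03 and 1.01 Flt1 counts for each Kdr count in EL, and 19.8, 19.3 and 19.8 in PT. The libraries of each group lay close together and the groups were far apart, with a rise of 20.6-fold in PT. An exact two-sided permutation test gave p = 0.1, the smallest that 3 libraries against 3 allow.

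The sequences just upstream of the starts of Flt1 and Kdr are shown because these receptors moved so differently, and that of Tie1 because it fell as Kdr did. They are the 250 bases before the start in the RefSeq table of GRCm38.p6, all on the minus strand, 5′ to 3′. The start in that table is the end of the gene span given here for Tie1, but lies 427 bases inside the span for Flt1 and 617 bases inside it for Kdr. Capitals mark any of 5 motifs searched on both strands: ACGTG, the core of the hypoxia response element, AGGAAG, of the ETS type, AGATAA, of the GATA type, TGACGTCA, the cyclic AMP response element, and TATAAA, of the TATA box. The last motif pair was added after the sequences had been seen. No motif overlaps another within these windows.
Flt1, chr5:147726012-147726261: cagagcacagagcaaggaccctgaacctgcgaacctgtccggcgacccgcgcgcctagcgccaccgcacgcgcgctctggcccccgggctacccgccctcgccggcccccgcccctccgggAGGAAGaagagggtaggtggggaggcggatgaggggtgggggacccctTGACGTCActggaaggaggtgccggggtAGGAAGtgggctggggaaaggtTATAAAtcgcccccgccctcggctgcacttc
Kdr, chr5:75978456-75978705: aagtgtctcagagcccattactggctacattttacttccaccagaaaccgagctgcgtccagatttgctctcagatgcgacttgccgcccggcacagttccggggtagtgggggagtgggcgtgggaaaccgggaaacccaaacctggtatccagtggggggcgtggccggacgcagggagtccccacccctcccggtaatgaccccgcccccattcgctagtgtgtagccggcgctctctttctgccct
Tie1, chr4:118489850-118490099: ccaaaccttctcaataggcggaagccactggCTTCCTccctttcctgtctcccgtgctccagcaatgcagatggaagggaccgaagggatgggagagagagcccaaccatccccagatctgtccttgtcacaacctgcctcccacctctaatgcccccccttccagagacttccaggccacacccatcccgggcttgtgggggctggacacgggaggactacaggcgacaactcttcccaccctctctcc

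The Flt1 window holds AGGAAG at 2 places and TGACGTCA and TATAAA at 1 place each, the Tie1 window holds AGGAAG once, on the opposite strand, and the Kdr window holds none of the 5. Of 32851 windows of the same length, AGGAAG is in 29.5%, ACGTG in 16.6%, TATAAA in 12.4%, AGATAA in 9.99% and TGACGTCA in 1.55%. A match is a description of these letters only. The RefSeq table gave such a window for 9 of the 10 genes, and Angpt1 had none in it.

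Flt4 (chromosome 11, 49609679 to 49652739), the VEGF-C receptor of lymphatic and sprouting endothelium, took a middle place. It had 18.5, 21.9 and 20.6 CPM in EL and 3.78, 4.18 and 3.75 CPM in PT. The groups were well apart, with a log2 fold change of -2.38 (SE 0.085, edgeR adjusted p = 1.86e-11), or 5.20-fold lower in PT. Per length, the ratio of Flt4 to Kdr was 1.15, 1.52 and 1.33 in EL and 8.35, 7.04 and 8.25 in PT.

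Tek (chromosome 4, 94739086 to 94874976), the receptor of the angiopoietins, had 310, 265 and 356 counts in EL and 7, 4 and 7 in PT. This was 7.61, 6.67 and 8.87 CPM against 0.137, 0.0749 and 0.126 CPM. No PT library reached 10 counts, so the fold is the least precise of the 10. Tek passed the filter on low counts through EL alone, so its p-value is no separate evidence of the direction. The log2 fold change was -6.07 (SE 0.22, edgeR adjusted p = 2.24e-11), or 67.2-fold lower in PT.

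Tie1 (chromosome 4, 118471191 to 118489849), the partner of TEK with no well established ligand of its own, had 999, 824 and 923 counts in EL and 34, 24 and 36 in PT. As CPM these were 24.5, 20.7 and 23.0 against 0.663, 0.449 and 0.647. The log2 fold change was -5.27 (SE 0.124, edgeR adjusted p = 2.63e-13), or 38.7-fold lower in PT. The ratio of Tek to Tie1 per length was 0.273, 0.283 and 0.339 in EL and 0.181, 0.146 and 0.171 in PT. It was thus 1.79-fold lower in PT (exact two-sided permutation p = 0.1). The PT values rest on 7, 4 and 7 Tek counts, too few to resolve a shift of this size in a single library. Tek also passed the filter on low counts through EL alone.

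Angpt1 (chromosome 15, 42424667 to 42676977), the activating ligand of TEK, had 1467, 1349 and 1317 counts in EL and 113, 143 and 147 in PT. This was 36.0, 34.0 and 32.8 CPM in EL against 2.20, 2.68 and 2.64 CPM in PT. The ligand fell less steeply than its receptor, with a log2 fold change of -3.77 (SE 0.077, edgeR adjusted p = 7.03e-14), or 13.6-fold lower in PT. Exons of Angpt1 share 737 bases with Gm17473 on the opposite strand, and the strand setting of the counting is not given in the sources used here, so reads of the pair cannot be told apart. None of the other 9 genes shares exon bases with another annotated gene.

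**Figure D2:**
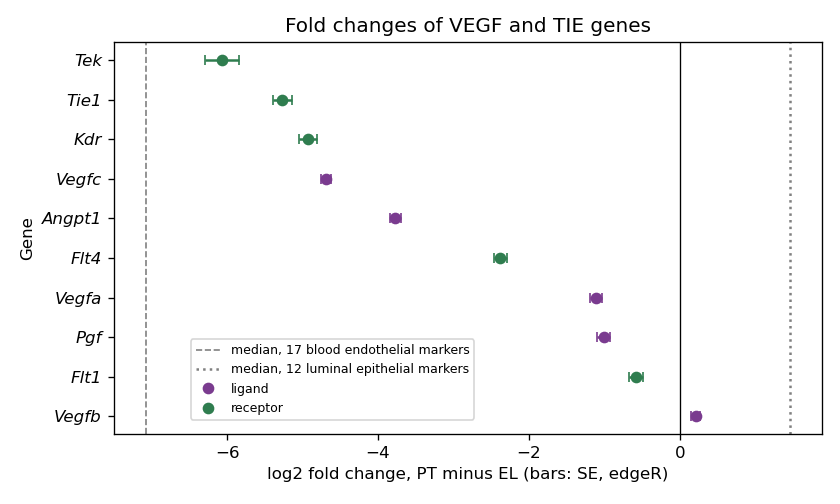
Log2 fold changes (PT minus EL) of the 10 genes in order, with bars of 1 SE from edgeR, ligands and receptors in different colours, and lines at the medians of the blood endothelial markers (-7.08) and the luminal epithelial markers (1.46). Every gene lies between the lines, from Tek at -6.07 to Vegfb at 0.21. The endothelial median rests mostly on markers that passed the filter on low counts through EL alone.

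Levels of different genes were compared as CPM per kb of the longest annotated transcript matched to a deposited row of the gene. In EL, Vegfa led with 109 ± 16.4 CPM per kb (SD, n = 3), followed by Vegfb with 19.5 ± 1.46 and Pgf with 18.7 ± 1.96, which overlapped, and by Vegfc with 15.5 ± 0.124. Below the VEGF ligands came Angpt1 with 8.04 ± 0.384 CPM per kb, Tie1 with 5.56 ± 0.466, Flt4 with 3.25 ± 0.277, Kdr with 2.45 ± 0.131, Flt1 with 2.01 ± 0.156 and Tek with 1.66 ± 0.237. Only the last pair of these neighbours, Flt1 and Tek, overlapped. All 5 ligands thus stood above all 5 receptors in the EL spheres.

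The order of levels was different in PT. Vegfa still led with 50.2 ± 2.99 CPM per kb, ahead of Vegfb with 22.6 ± 0.832 and Pgf with 9.28 ± 0.934. Flt1 came next with 1.35 ± 0.195 CPM per kb, above Flt4 with 0.624 ± 0.0377, Vegfc with 0.600 ± 0.0483 and Angpt1 with 0.589 ± 0.0619, and those last genes overlapped. Tie1 with 0.143 ± 0.0291 CPM per kb, Kdr with 0.0800 ± 0.0128 and Tek with 0.0241 ± 0.00707 closed the list without overlap. Flt1 had thus moved from the second lowest of the 10 genes in EL to the highest receptor in PT, and Vegfc from well above all receptors to the level of Flt4.

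The make-up of each family shows the same shift as shares, with each gene taken per length. The ligand sum covers only the VEGF ligands among the 10 genes and so leaves out VEGF-D. Among the summed VEGF ligands, Vegfa held 66.7% ± 3.35 in EL and 60.7% ± 1.75 in PT (SD, n = 3), and Pgf held 11.5% ± 0.222 and 11.2% ± 1.46, so that these shares moved little. Vegfb rose as a share from 12.2% ± 2.29 to 27.4% ± 0.711, and Vegfc went from 9.61% ± 0.998 to 0.727% ± 0.0771. Among the receptors the shift was wider. Flt1 made up 25.0%, 26.1% and 27.1% of the summed VEGF receptors in the EL libraries and 64.5%, 67.3% and 64.8% in the PT libraries. Kdr made up 34.9%, 29.4% and 31.2% in EL and 3.80%, 4.06% and 3.80% in PT, while Flt4 made up 42.1% ± 2.25 in EL and 30.6% ± 1.71 in PT. In EL the 3 receptors thus had comparable shares, with Flt4 first in each library. In PT Flt1, its forms not separated, had the largest share. These shares are relative, and all 3 receptors fell in CPM.

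**Figure D3:**
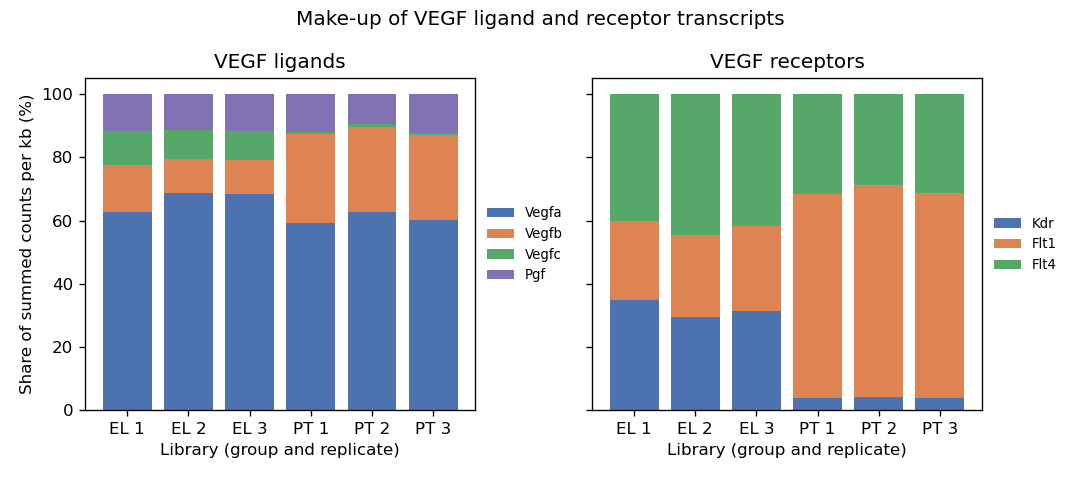
Share of each gene in the summed VEGF ligands and in the summed VEGF receptors of each library, in percent of CPM per kb, as stacked bars that add up to 100 per library. The ligand bars are mostly Vegfa in all libraries, while the receptor bars change from comparable shares in EL to mostly Flt1 in PT.

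Ligand and receptor were also set against each other. Per length there were 35.0, 50.8 and 48.2 Vegfa for each Kdr in EL and 665, 566 and 671 in PT, a rise of 14.3-fold (exact two-sided permutation p = 0.1, the smallest possible). Vegfa thus fell in PT, but far less than the receptor through which it mainly signals.

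Vegfa is spliced into forms of different length. The sequences of exons 6 and 7 are shown because the deposited rows include forms with and without them, and because they encode the basic stretches that hold the longer forms of VEGF-A to heparan sulphate at the cell surface and in the matrix. Both are given 5′ to 3′ on the minus strand, from GENCODE vM21 on GRCm38, with no capitals.
Exon 6 (72 bases), chr17:46022277-46022348: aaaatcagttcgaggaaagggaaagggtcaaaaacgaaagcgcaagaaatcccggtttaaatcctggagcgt
Exon 7 (132 bases), chr17:46020991-46021122: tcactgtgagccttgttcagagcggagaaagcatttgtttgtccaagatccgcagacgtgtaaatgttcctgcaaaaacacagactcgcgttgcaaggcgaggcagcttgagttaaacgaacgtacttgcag

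Vegfa has 9 transcript rows in the tables, and a read appears to be counted in every row that it overlaps, so that rows differ by the reads that lie wholly within the extra exons. The row with both exons exceeded the row without exon 6 by 28, 45 and 50 counts in EL and by 48, 54 and 53 in PT. The row without exon 6 exceeded the row without either exon by 246, 312 and 329 counts in EL and by 278, 328 and 306 in PT. Scaled as CPM, the counts within both exons were 6.73, 8.99 and 9.44 in EL and 6.36, 7.15 and 6.45 in PT. The groups overlapped, and the PT mean was 1.26-fold lower, against 2.17-fold for Vegfa as a whole.

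As a share of all Vegfa counts, those within exons 6 and 7 were 2.17%, 2.22% and 2.30% in EL and 3.82%, 3.86% and 3.83% in PT. In EL replicate 3 the 95% Wilson interval was 2.08% to 2.54%, and in PT replicate 1 it was 3.44% to 4.25%, so the closest libraries were apart beyond counting error, which is all these intervals cover. The share was 1.72 times as high in PT (exact two-sided permutation p = 0.1). For exon 6 alone it was 0.268% ± 0.0417 in EL and 0.558% ± 0.0104 in PT, and for exon 7 alone 1.96% ± 0.0272 and 3.28% ± 0.032.

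This comparison was chosen after its values had been seen. A share of like form, the counts outside another transcript row of the gene, was therefore computed for 751 genes with several transcript rows. These had a mean count of at least 100, at least 20 such counts in each library and a mean share of 0.5% to 10%. The row that gave the largest share in that range was taken for each gene. PT lay above EL without overlap in 17.4% of them. The rows of those genes can differ in any part of the transcript, so they are no close match for short inner exons. The ratio of PT to EL had a median of 1.00 over these genes and 5th and 95th percentiles of 0.688 and 1.56, so that the ratio of 1.72 for Vegfa lay above the 95th percentile. The read length of each group is not given in the sources used here. It sets how many reads can lie wholly within a short exon, and its part in the result was not tested.

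**Figure D4:**
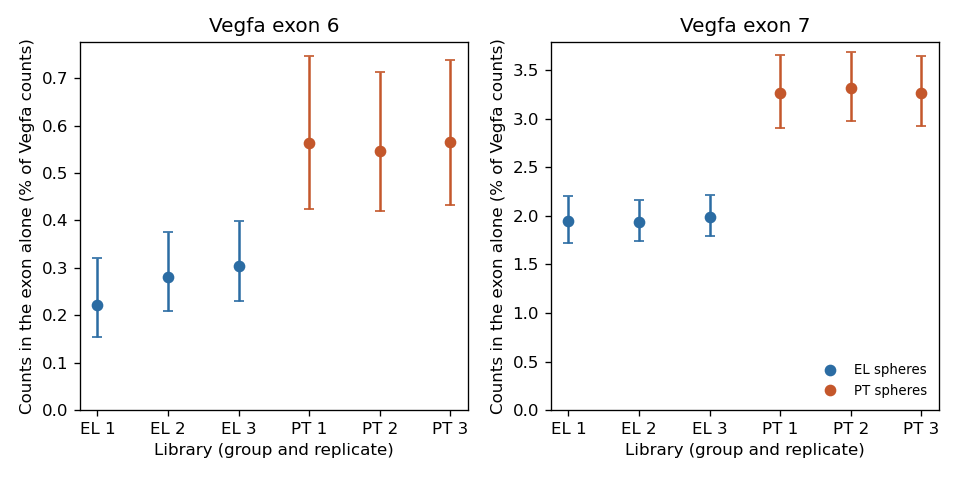
Counts within Vegfa exons 6 and 7 as a percentage of all Vegfa counts, with exon 6 on the left and exon 7 on the right, in each of the 6 libraries with 95% Wilson intervals (counting error only). The PT libraries lie above the EL libraries in both panels, at 3.26% to 3.32% against 1.94% to 1.99% for exon 7.

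The other genes of these pathways were taken from lists, read against the 40.8% of tested genes that were lower and the 39.9% that were higher in PT. Of 6 tested angiopoietin and TIE genes outside the 10, all 6 fell, with a median log2 fold change of -5.09. Angpt2, the angiopoietin that endothelium releases as a context-dependent antagonist of TEK, named from the list of VEGF response genes that also holds it, went from 40.1 ± 8.94 CPM in EL to 1.52 ± 0.166 CPM in PT, a log2 fold change of -4.72 (SE 0.174). Angpt4, a further TEK ligand, went from 30.5 ± 1.55 to 0.356 ± 0.0988 CPM, Svep1 and Angptl2, a large matrix protein and an angiopoietin-like protein, changed by -7.38 (SE 0.074) and -5.19 (SE 0.052), and Ptprb, the endothelial phosphatase that restrains TEK, from 18.2 ± 1.23 to 0.565 ± 0.109 CPM. For each Angpt2 count there were 0.731, 1.08 and 0.834 Angpt1 counts in EL and 1.36, 2.01 and 1.63 in PT. Activating and antagonistic ligands therefore fell together, and the balance between them moved by only 1.90-fold.

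Of 12 VEGF co-receptors and partners, 11 fell and 1 rose, with a median of -1.66. Nrp1, the neuropilin that presents VEGF-A to KDR, went from 148 ± 11.4 to 10.7 ± 0.861 CPM (log2 fold change -3.80, SE 0.067). Gpc1, a heparan sulphate proteoglycan that binds VEGF-A, went from 659 ± 27.8 to 44.6 ± 1.40 CPM. Plxnd1 and Sema3a, a plexin and a semaphorin that share the neuropilin system, changed by -3.15 (SE 0.06) and -6.50 (SE 0.133). Sema3a, with 8, 8 and 12 counts in PT, passed the filter on low counts through EL alone, which fixed its direction. The gene that rose was Sema3c, from 39.7 ± 4.89 to 160 ± 1.65 CPM, which was named after its values had been seen.

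Among 9 genes of VEGF-C and VEGF-D and their processing, 8 fell and 1 rose, with a median of -3.12. Ccbe1, the secreted protein that helps to cleave VEGF-C, went from 32.5 ± 5.78 to 2.01 ± 0.521 CPM, and Pcsk5, a proprotein convertase, from 558 ± 8.55 to 7.38 ± 0.957 CPM. Plat and Plau, the plasminogen activators, changed by -5.73 (SE 0.055) and -3.12 (SE 0.07). The ligand VEGF-D, listed under its older symbol Figf and named after its values had been seen, had 1057 counts in the EL libraries together and 11 in the PT libraries together. Figf passed the filter on low counts through EL alone, which fixed its direction. Both lymphatic ligands were therefore low in PT, as was their receptor Flt4 by a smaller factor.

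Of 28 tested genes of VEGF receptor signal transduction, most of which are expressed in nearly all cells, 12 rose, 12 fell and 4 did not pass the test, with a median of 0.06. Nos3, the endothelial nitric oxide synthase, went from 13.9 ± 0.460 to 0.137 ± 0.0599 CPM (log2 fold change -6.64, SE 0.161). With 5, 11 and 6 counts in PT, Nos3 passed the filter on low counts through EL alone, which fixed its direction. Hspb1, a small heat shock protein phosphorylated downstream of p38 kinase, rose from 38.6 ± 0.690 to 158 ± 5.04 CPM, while Sphk1 and Nfatc1 changed by -1.84 (SE 0.039) and -1.85 (SE 0.072). Of 10 genes that VEGF is known to induce in endothelium, 9 fell and 1 rose, with a median of -2.44. Dll4, the Notch ligand of tip cells, went from 18.4 ± 0.933 to 1.07 ± 0.211 CPM, Apln from 50.8 ± 7.61 to 1.91 ± 0.299 CPM, and Unc5b, a netrin receptor, changed by -3.27 (SE 0.047).

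Vegfa is a textbook target of hypoxia-inducible factors. Of 16 hypoxia regulators and targets, 12 fell and 4 rose, with a median of -1.35. The factors Hif1a and Epas1 changed by -1.75 (SE 0.034) and -1.57 (SE 0.041), and their targets Slc2a1, a glucose transporter, and P4ha1, a collagen prolyl hydroxylase, by -1.35 (SE 0.04) and -4.67 (SE 0.096). Car9, a target often used as a hypoxia marker and named here after its values had been seen, went the other way, from 7.53 ± 1.01 to 22.9 ± 1.36 CPM. The list therefore did not move as one. EL replicate 1, the EL library with the lowest Vegfa, was also the lowest of EL in 14 of the 16 hypoxia genes. It was the highest of EL in 12 of 17 blood endothelial markers and in 8 of 12 fibroblast markers. Of the 10 genes it was the lowest in 5 and the highest in 4. The share over all tested genes was not computed. EL replicate 1 also differed most from the others, with a chi-square per degree of freedom of 12.3 and 9.69, against 4.18 between EL replicates 2 and 3. The part of this in the Vegfa spread was not tested.

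Markers of the cells that carry the receptors moved with the groups. All 17 blood endothelial markers fell, their median being -7.08. They summed to 323 to 344 CPM in EL against 11.6 to 13.2 CPM in PT, with none at 0 in all PT libraries. Most of these markers had few counts in PT and passed the filter on low counts through EL alone, which fixed their direction. Cdh5, with 6, 17 and 13 counts in PT, and Pecam1, with 10, 12 and 21, are among them. The median therefore rests mostly on such markers. Eng, Plvap and Vwf were among those with at least 22 counts in every PT library. Cdh5, the endothelial cadherin, had 69.5 ± 1.06 CPM in EL and 0.223 ± 0.101 in PT, Pecam1 had 47.4 ± 2.16 and 0.266 ± 0.0978, and Eng had 67.5 ± 2.69 and 4.03 ± 0.111. Vwf, von Willebrand factor, named after its values had been seen, stood apart with 7.80 ± 0.529 and 5.72 ± 0.653 CPM. Of 4 tested lymphatic markers, 3 fell and Prox1, the lymphatic master regulator, rose from 1.72 ± 0.452 to 3.13 ± 0.333 CPM, whereas Lyve1 had 109 counts over EL and 3 over PT. Lyve1 and Reln, the latter with 18 counts over PT, passed the filter through EL alone, which fixed their direction. The lymphatic list summed to 212 to 241 CPM in EL and 10.2 to 11.4 in PT, most of it Pdpn, which fibroblasts express too, and of its 6 genes Ccl21a was at 0 in all 6 libraries and Mmrn1 in the 3 PT libraries, with 12, 9 and 9 counts in EL. Mmrn1 was named after its values had been seen. The part of these cell types in the falls of the receptors and of Vegfc was not tested.

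Each receptor was also given per 100 CPM of the summed blood endothelial markers. Kdr was 4.42, 4.23 and 4.46 in EL and 3.69, 4.41 and 3.26 in PT on this scale, and the groups overlapped (exact two-sided permutation p = 0.2). Flt1 was 3.69, 4.37 and 4.50 in EL and 73.0, 85.2 and 64.7 in PT, and Flt4 was 5.38, 6.77 and 6.28 in EL and 32.5, 32.8 and 28.4 in PT. Tie1 went from between 6.41 and 7.14 to between 3.53 and 5.71, and Tek from between 2.06 and 2.70 to between 0.588 and 1.17. Kdr, Tie1 and Tek thus fell by about as much as the marker sum, or by up to 2.66-fold more, whereas Flt1 and Flt4 rose relative to it. The sum in PT was mostly Vwf and Eng, at means of 5.72 and 4.03 CPM. Eng was also the largest part of the PT sum without Vwf, 6.40 to 7.42 CPM. The median marker fell by more, at -7.08 on the log2 scale, than Kdr (-4.93), Tie1 (-5.27) and Tek (-6.07). That median rests mostly on markers whose direction was fixed by the filter on low counts. The sign for Kdr, Tie1 and Tek depends on the markers used, since all 3 were higher in PT relative to Cdh5 alone (Tek by 2.26 on the log2 scale). Vwf made up 43.3% to 49.7% of the sum in PT and 2.10% to 2.55% in EL, and without it Kdr and Tie1 were higher in PT by 0.63 and 0.28 on the log2 scale, the latter with overlapping groups, and Tek was lower by 0.56.

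Other cell types moved as well, with their part in the 10 genes not tested. Of 9 pericyte markers, which mark a source of Angpt1, all 9 fell with a median of -3.95. Their changes ran widely, from -0.18 to -6.20, the latter for Pdgfrb. Fibroblast markers fell in 12 of 12 cases with a median of -6.58, and 3 of 3 tested adipocyte markers fell with a median of -3.26. Of 10 macrophage markers, cells that can express Flt1 and Vegfa, 9 rose and 1 did not pass the test, and their sum went from 316 to 332 CPM in EL to 666 to 687 CPM in PT. Most of this sum was Cd14, at means of 240.5 CPM in EL and 480.7 CPM in PT. C1qa, C1qb and C1qc, the complement genes typical of tissue macrophages, changed by 2.51, 2.86 and 2.80. Luminal epithelial markers rose in 11 of 12 cases with a median of 1.46, the exception being Krt19 at -6.71. Basal markers rose in 3 and fell in 6 of 9 cases, and blood cell markers rose in 1, fell in 1 and did not pass in 2 of 4 cases.

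**Figure D5:**
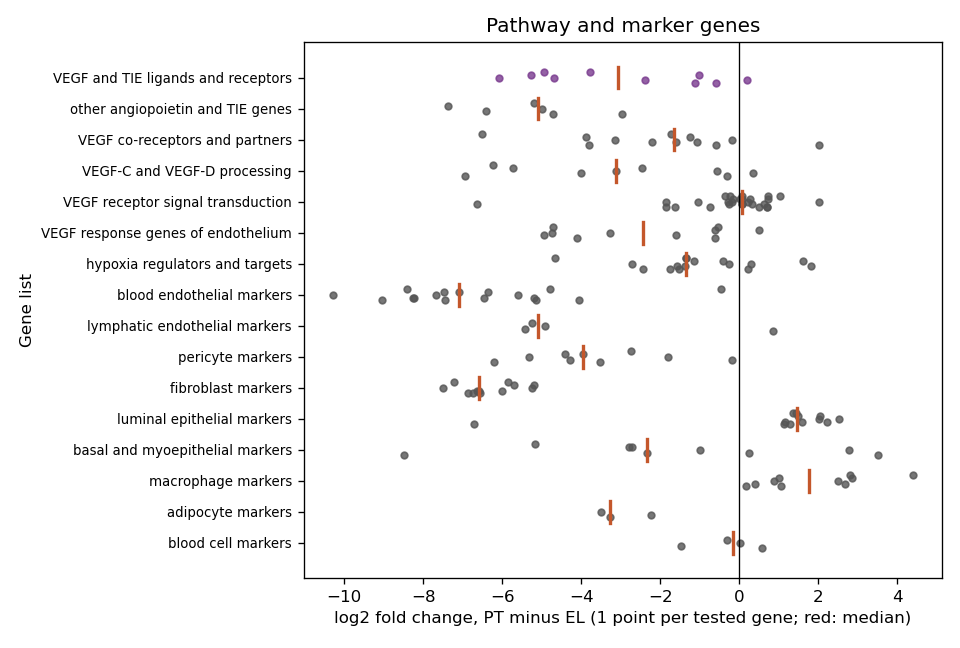
Log2 fold changes (PT minus EL) of the genes in each pathway and marker list, 1 point per tested gene, with a bar at the median of the list. Endothelial and fibroblast markers lie at the far left, with medians of -7.08 and -6.58, macrophage and luminal epithelial markers to the right of 0, and the 10 VEGF and TIE genes spread between them.

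The genes whose profile over the 6 libraries was most like that of Vegfa and of Kdr were sought among 11570 tested genes with a mean count of at least 100, by the Euclidean distance of their centred log2 CPM. For Vegfa they were Bsg, a glycoprotein that escorts lactate transporters (distance 0.077), Pdk1, a kinase that restrains pyruvate entry into mitochondria (0.099), Tnfrsf11b, the decoy receptor osteoprotegerin (0.15), and Gja1, connexin 43 (0.16). Their log2 fold changes ran from -1.21 to -1.13. For Kdr they were Pde1a, a cyclic nucleotide phosphodiesterase (0.133), Doc2b, a calcium sensor of vesicle release (0.194), Tgfb1i1, a focal adhesion protein (0.209), and Mmp14, a membrane-bound matrix metalloproteinase (0.254). None of these is an endothelial marker on the list used here, and with only 2 groups such likeness mostly restates the fold change.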

How the data were processed

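Poly(A) RNA of 3 EL and 3 PT sphere libraries was sequenced on an Illumina MiSeq, per the labels' protocols. Per the submitters' processing notes STAR, featureCounts and DESeq2 were used with the builds mm10 and hg19, with no versions in the sources used here. The deposited values are raw whole-number counts per transcript, not normalized by the authors. A read can be counted in several transcripts of a gene. Every row carries a gene symbol.

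For each symbol the transcript with the highest mean count among rows present in all 6 libraries was kept, ties (Vegfa, Tek, Angpt1) going to the first identifier. The 4170 symbols absent from the incomplete EL table were left out. The counts were tested with edgeR 4.0.16 (R 4.3.3, filterByExpr, TMM factors, quasi-likelihood test, group as the only term), with Benjamini-Hochberg adjustment over 13844 genes. A gene can pass filterByExpr through a single group, which then fixes its direction. The counts of list genes that fell or rose include such genes. TMM factors were 0.914 to 0.922 in EL and 1.09 in PT. Replicates differed beyond sampling noise, with a chi-square per degree of freedom of 2.89 to 12.3. The script was tested on simulated counts. The SE of an edgeR log2 fold change is its absolute value divided by the square root of the quasi-likelihood F statistic. CPM use TMM-scaled totals. Lengths are those of the longest GENCODE vM21 transcript matched to a deposited row of the gene.

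Alternatives were other scalings, DESeq2 1.42.0, limma-voom (limma 3.58.1), other filters, a 2-fold minimum, other transcripts, a replicate block and each library left out. The genes and lists were chosen with earlier results of these data known. Genes named from a list are up to 4 with the smallest p-value, and any other is said to be chosen after its values were seen.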

Additional observations from a re-analysis of the deposited data

How the results depend on the processing

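Of 180 recomputed log2 fold changes of the 10 genes, 176 kept their direction and side of the threshold and 0 reversed. The other 4, all against a 2-fold minimum (glmTreat), no longer passed: Vegfa (adjusted p = 0.124), Pgf (0.72), Vegfb (1.0) and Flt1 (1.0). That test left 6 of the 10 genes lower and 0 higher, 2391 genes lower and 1010 higher of all tested, 22 higher among the other lists. Library totals alone shifted the median of all genes by 0.25 and called 7911 genes higher and 4111 lower, against 5527 and 5646 with TMM factors. Leaving out 1 library gave 5277 to 5575 higher and 5481 to 5708 lower. Same-numbered libraries did not deviate together (r = 0.022, 0.008 and -0.002), so the numbers were not taken to pair libraries, and a replicate block called 5539 genes higher and 5664 lower, with the same 9 and 1 of the 10 genes. Among the 77 named genes, Pf4 alone reversed, around a value of 0.0094 that never passed the test: -0.00066 (RLE), -0.003 (DESeq2), -0.013 (voom), -0.0032 (mean count of at least 50), -0.0015 (replicate block), -0.038 (5 complete libraries, chosen after seeing the data) and -0.085 to 0.18 with 1 library left out. Without the length correction, the shares in EL and PT were 80.0% and 79.3% for Vegfa, 5.44% and 13.3% for Vegfb, 6.35% and 6.75% for Pgf, and 28.4% and 67.8% for Flt1. Vegfc was then 8.20% in EL, and Kdr and Flt4 were 3.46% and 28.7% in PT. Relative to Cdh5 alone, the receptors were higher in PT on the log2 scale, by 3.45 (Kdr), 7.82 (Flt1), 6.02 (Flt4), 2.26 (Tek) and 3.10 (Tie1). Against -0.22, 4.15, 2.35, -1.41 and -0.57 with all markers, the values without Vwf, a choice made after seeing the data, were 0.63, 4.99, 3.20, -0.56 and 0.28. Cdh5 rests on few PT counts, 36 in all, and Tek on 18, so depth limits these ratios.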
